A study of Mus musculus with 8 samples.

Results

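The genes described here are 10 markers of macrophages and of complement C1q: Lyz2, Csf1r, Adgre1, Cd68, C1qa, C1qb, C1qc, Cd163, Mrc1 and Sirpa. They were read from the 16 probe sets, of 22690 on the array, whose single gene symbol in the platform annotation was 1 of these names. Csf1r, C1qb and Sirpa had 3 probe sets each and the other genes 1 each. The data came from whole skin of newborn FVB mice, an inbred strain, on 8 microarrays. Every array read a pool of RNA from 3 newborns that shared a genotype, and each of the 4 genotypes had 2 arrays: control (labelled only as such), pRb_null (pRb-/-;p53+/+), p53_null (pRb+/+;p53-/-) and double_null (pRb-/-;p53-/-). The series' title places the inactivation of both tumour suppressors in stratified epithelia, and macrophages are not epithelial cells. The sources used here do not name the driver of the deletion. No treatment is labelled.

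Each deposited value is a standardized score: every probe set has mean 0 and SD 1 over the 8 arrays, so values and differences are in units of that probe set's own SD. The scores hold no expression level and allow no fold change. They therefore cannot show whether a gene was expressed, nor which of 2 genes was more abundant. Differences of group means were tested with limma's linear model without variance moderation, two-sided, on 22626 probe sets. A probe set was called at a Benjamini-Hochberg adjusted p under 0.05 over all of them, and "not overlapping" means that both arrays of 1 group lay above both of the other. Nothing says that both arrays of a genotype came from different pools, so the p-values cover array-to-array spread that may be technical.

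Macrophages of the skin are phagocytes of the dermis, seeded before birth, that clear dying cells and debris. The receptor Csf1r, bound by the ligands Csf1 and Il34, keeps them alive. C1q, the recognition molecule of the classical complement pathway, is assembled from A, B and C chains that C1qa, C1qb and C1qc encode, and tissue macrophages are a main source of it. In whole tissue, fewer macrophages and less RNA per macrophage cannot be told apart.

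The 3 C1q genes lie next to each other in the order C1qb, C1qc and C1qa on chromosome 4 of the RefSeq annotation of GRCm38.p6, with no other protein-coding gene between them. Lyz2 lies beside its paralogue Lyz1 on chromosome 10, and Cd163 lies on chromosome 6. RefSeq promoter sequence was at hand for 6 of the 10 genes. The 250 bases before the annotated start are shown for C1qb, C1qc and Cd163, whose scores were high in p53_null and double_null, and for Lyz2, whose scores were high in double_null. Capitals mark matches on either strand to the letters GAGGAA, the core of sites for the myeloid factor PU.1 and other ETS factors, and to the letters TGCTGA, a part of the Maf recognition element.
C1qb, chr4:136886201-136886450, minus strand: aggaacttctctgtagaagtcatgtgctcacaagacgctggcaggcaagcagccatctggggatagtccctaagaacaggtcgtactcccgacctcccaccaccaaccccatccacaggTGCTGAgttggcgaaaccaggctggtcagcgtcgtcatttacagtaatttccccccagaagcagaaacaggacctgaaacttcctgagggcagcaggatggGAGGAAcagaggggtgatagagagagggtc
C1qc, chr4:136892915-136893164, minus strand: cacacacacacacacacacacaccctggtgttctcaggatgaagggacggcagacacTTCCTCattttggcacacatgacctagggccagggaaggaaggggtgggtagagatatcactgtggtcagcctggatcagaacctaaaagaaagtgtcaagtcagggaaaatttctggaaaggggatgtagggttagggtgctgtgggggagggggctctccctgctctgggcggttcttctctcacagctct
Cd163, chr6:124304401-124304650, plus strand: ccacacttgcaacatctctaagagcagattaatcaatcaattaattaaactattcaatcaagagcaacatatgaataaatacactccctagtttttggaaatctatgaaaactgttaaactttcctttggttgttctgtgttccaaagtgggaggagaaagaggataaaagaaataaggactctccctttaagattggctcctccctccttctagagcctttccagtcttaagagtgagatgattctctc
Lyz2, chr10:117282273-117282522, minus strand: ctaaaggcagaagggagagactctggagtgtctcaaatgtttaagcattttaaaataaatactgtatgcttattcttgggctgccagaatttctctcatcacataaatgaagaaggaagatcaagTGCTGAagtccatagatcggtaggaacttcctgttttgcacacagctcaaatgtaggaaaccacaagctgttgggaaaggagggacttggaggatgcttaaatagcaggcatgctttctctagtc
The marked matches do not overlap each other in these windows. In C1qb the GAGGAA match begins 30 bases upstream of the start and the TGCTGA match 131 bases upstream. In C1qc the GAGGAA match, on the other strand, begins 193 bases upstream, and in Lyz2 the TGCTGA match 125 bases upstream. Of the 6 windows, 4 held the GAGGAA letters (C1qb, C1qc, Cd68 and Mrc1) and 2 the TGCTGA letters. Over all 32851 promoter windows of the same length the shares were 23.3% and 16.1%, and a match describes letters, not a bound site.

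**Figure D1:**
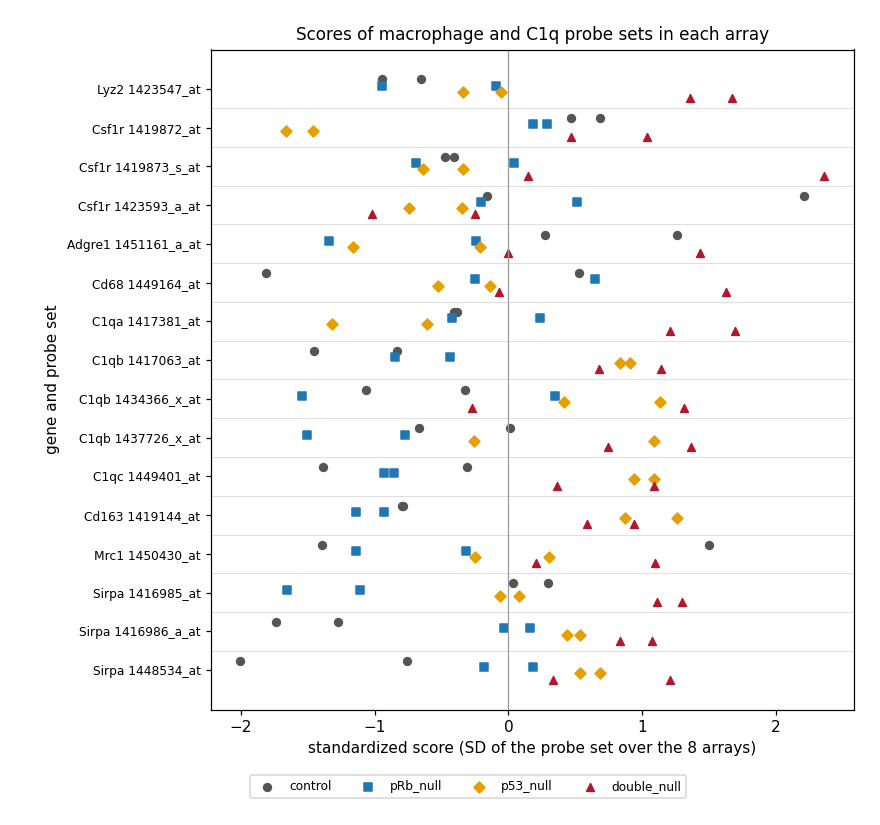
Standardized score (horizontal axis, in SD of the probe set over the 8 arrays) of each of the 16 probe sets (rows), 1 point per array, with shape and colour for the genotype. The double_null arrays lay above the 6 others for Lyz2 and C1qa, and the 4 arrays of p53_null and double_null lay above the 4 others for Cd163, C1qc and 1 of the C1qb probe sets.

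Averaged over the 10 genes, with a gene's probe sets averaged first, the score was −0.58 and −0.20 (control), −0.63 and −0.39 (pRb_null), 0.0051 and 0.017 (p53_null), and 1.03 and 0.74 (double_null). In this mean over genes control and pRb_null overlapped, p53_null lay above both, and double_null lay above all. Single probe sets differed from it: Adgre1 and Csf1r 1423593_a_at had their highest group mean in control, and C1qc, Cd163 and C1qb 1434366_x_at had it in p53_null. Against control, 14 of the 16 probe sets had a positive difference in double_null, with a median of 1.49, where the median over all probe sets was −0.0081. In pRb_null the members were split evenly, 8 above 0 and 8 below, with a median of 0.026 (0.065 over all probe sets). In p53_null, 9 were above 0, with a median of 0.46 (−0.16 over all). These 3 comparisons share the control arrays.

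In double_null against control, 1 member probe set passed the test, Sirpa 1416986_a_at, where 0.323% of all probe sets were called higher. At an unadjusted p under 0.05, 8 of the 16 were higher (8.72% of all probe sets) and 0 lower (9.93%), by the same limma fit. Without overlap between the groups, 11 were higher (25.0%) and 1 lower (26.2%). The 8 probe sets higher at the unadjusted bound belonged to 6 genes: Lyz2, C1qa, C1qb, C1qc, Cd163 and Sirpa. For Csf1r, Adgre1, Cd68 and Mrc1 no probe set reached it. Without control replicate 2 or without double_null replicate 1, the median of the 16 was 1.61 and 1.18. Limma's moderated test gave 5 higher at that bound (2198 of all 22626 probe sets), with 0 called.

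In p53_null against control 0 members were called by the limma fit (0.0354% of all probe sets higher, 0.084% lower), and 5 were higher at an unadjusted p under 0.05 (7.32%) and 1 lower (7.24%). The 5 were Cd163, C1qc, C1qb 1417063_at, Sirpa 1416986_a_at and Sirpa 1448534_at, and the lower one was Csf1r 1419872_at. Without overlap between the groups, 7 were higher (23.8%) and 4 lower (28.9%). Without p53_null replicate 1 or replicate 2 the median of the 16 was 0.62 and 0.18. Without control replicate 2 the median was 1.09, and without control replicate 1 it was 0.19. The moderated test also called 0, with 5 higher at the unadjusted bound (1777 of all 22626 probe sets). In pRb_null against control 0 were called (0.0% of all probe sets in either direction), and 1 was higher (6.38%) and 1 lower (4.22%) at the unadjusted bound, both of them Sirpa probe sets. Without overlap, 2 were higher (22.6%) and 5 lower (18.4%). Without control replicate 1 the median in pRb_null was −0.048. The moderated test had 0 at the unadjusted bound in either direction (1497 higher and 961 lower of all 22626 probe sets).

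**Figure D2:**
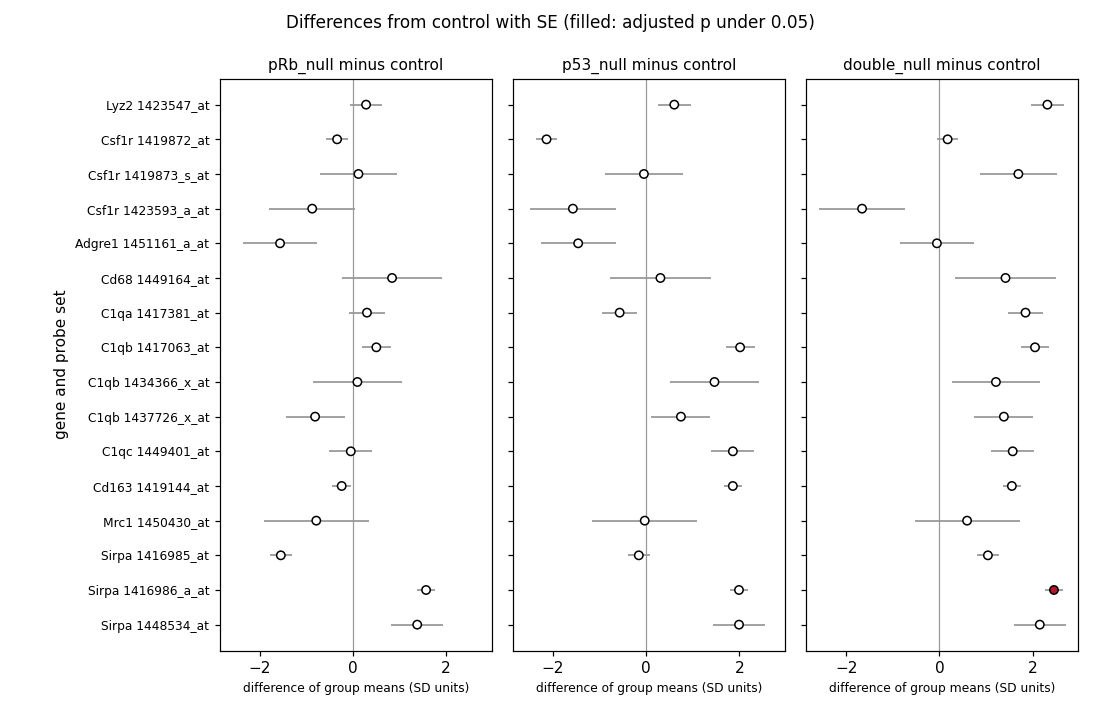
Difference of group means from control (horizontal axis, SD units) with its standard error for the 16 probe sets (rows) in pRb_null, p53_null and double_null, 2 arrays per group. A filled point marks an adjusted p under 0.05, reached by Sirpa 1416986_a_at in double_null (2.46), where 14 of 16 points lie to the right of 0.

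The genes of macrophage identity and growth did not share 1 pattern. Lyz2 encodes lysozyme M, a bacteria-degrading enzyme made in quantity by macrophages and neutrophils. Its scores were −0.95 and −0.65 (control), −0.094 and −0.94 (pRb_null), −0.34 and −0.055 (p53_null), and 1.36 and 1.67 (double_null). Both double_null arrays lay above the 6 others, with p53_null and pRb_null overlapping, and pRb_null and control overlapping. The difference from control was 2.32 ± 0.35 (SE), with an adjusted p of 0.093 that missed the threshold, 2.04 ± 0.35 from pRb_null (adjusted p = 0.12) and 1.71 ± 0.35 from p53_null (adjusted p = 0.26). Probes for Lyz2 may also catch its near copy Lyz1. The probe sets annotated to Lyz1 did not share 1 order: in double_null against control, 1436996_x_at differed by 1.50 ± 0.81, 1439426_x_at by 0.94 ± 1.00 and 1450822_at by −1.29 ± 1.12.

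Csf1r, the receptor for Csf1 and Il34, was read by 3 probe sets that disagreed, with r over the 8 arrays from −0.21 to 0.30. Probe set 1419872_at scored 0.68 and 0.47 (control), 0.19 and 0.29 (pRb_null), −1.47 and −1.66 (p53_null), and 0.47 and 1.04 (double_null). It was thus low in both p53_null arrays, by −2.14 ± 0.23 from control (adjusted p = 0.091), and double_null and control overlapped. Probe set 1419873_s_at scored 2.36 in double_null replicate 1 and 0.14 in replicate 2, and between −0.69 and 0.045 in the 6 other arrays. Probe set 1423593_a_at was led by control replicate 2 alone, at 2.21, with the 7 other arrays between −1.02 and 0.51. No direction for Csf1r holds over its 3 probe sets.

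Adgre1 encodes an adhesion receptor that is the classical surface mark of mouse macrophages. Its scores were 1.26 and 0.27 (control), −1.34 and −0.25 (pRb_null), −0.21 and −1.17 (p53_null), and −0.0026 and 1.43 (double_null). Control and double_null overlapped, as did p53_null and pRb_null, and the difference between double_null and control was −0.053 ± 0.803. Cd68, a glycoprotein of the lysosomes of phagocytes, scored −1.81 and 0.53 (control), −0.25 and 0.65 (pRb_null), −0.53 and −0.14 (p53_null), and 1.63 and −0.071 (double_null). Each pair of neighbouring groups overlapped, and its within-group SD of 1.08 exceeded the SD of 1 over all arrays. With SE this large, differences of that size could not be detected for either gene.

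The 3 chains of C1q were read with different patterns. C1qb 1417063_at scored −1.45 and −0.84 (control), −0.44 and −0.85 (pRb_null), 0.91 and 0.84 (p53_null), and 1.14 and 0.68 (double_null). C1qc scored −0.31 and −1.39 (control), −0.93 and −0.86 (pRb_null), 0.94 and 1.09 (p53_null), and 1.09 and 0.37 (double_null). For both, the 4 arrays of p53_null and double_null lay above the 4 others, and within each of these 2 sets of 4 the genotypes overlapped. C1qa scored −0.41 and −0.38 (control), 0.23 and −0.42 (pRb_null), −1.32 and −0.61 (p53_null), and 1.21 and 1.70 (double_null). Here the p53_null arrays were the lowest of the 8 and the double_null arrays the highest.

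Against control, p53_null differed by 2.02 ± 0.31 for C1qb 1417063_at (adjusted p = 0.14), by 1.86 ± 0.46 for C1qc (adjusted p = 0.23) and by −0.57 ± 0.38 for C1qa (adjusted p = 0.56). In double_null the differences were 2.05 ± 0.31 (adjusted p = 0.092), 1.57 ± 0.46 (adjusted p = 0.21) and 1.85 ± 0.38 (adjusted p = 0.13) in the same order. None passed the test. Between double_null and p53_null the difference was 0.04 ± 0.31 for C1qb 1417063_at and −0.29 ± 0.46 for C1qc, against 2.42 ± 0.38 for C1qa (adjusted p = 0.20). Whether C1qa differs from the other chains was not tested. Over the 8 arrays, which share all libraries, r was 0.86 between C1qb 1417063_at and C1qc, 0.28 between C1qa and C1qb 1417063_at, and 0.12 between C1qa and C1qc.

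The other probe sets of C1qb, both of the _x_at kind that may cross-hybridise, were noisier. Probe set 1434366_x_at scored −0.32 and −1.07 (control), −1.55 and 0.35 (pRb_null), 1.13 and 0.41 (p53_null), and 1.31 and −0.27 (double_null). Probe set 1437726_x_at scored −0.67 and 0.011 (control), −1.51 and −0.78 (pRb_null), −0.26 and 1.09 (p53_null), and 0.74 and 1.37 (double_null). Both were higher in the double_null arrays than in the control arrays, by 1.21 ± 0.95 and 1.39 ± 0.63. The r between C1qb probe sets was 0.43 to 0.68, above the median of 0.215 over 12821 pairs of probe sets of 1 gene in the whole table.

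Among the scavenger and mannose receptors, Cd163 had the least spread. Cd163, the receptor that takes up haemoglobin bound to haptoglobin, scored −0.79 and −0.80 (control), −1.14 and −0.93 (pRb_null), 1.26 and 0.87 (p53_null), and 0.94 and 0.59 (double_null). The 4 arrays of p53_null and double_null lay above the 4 others, and p53_null and double_null overlapped. The difference from control was 1.86 ± 0.20 in p53_null (adjusted p = 0.091) and 1.56 ± 0.20 in double_null (adjusted p = 0.074), and that from pRb_null was 2.10 ± 0.20 in p53_null (adjusted p = 0.092) and 1.80 ± 0.20 in double_null (adjusted p = 0.074). None of these passed. Cd163 followed C1qc with an r of 0.94 and C1qb 1417063_at with an r of 0.92 over the 8 arrays. Mrc1, the mannose receptor CD206, scored −1.39 and 1.50 (control), −1.14 and −0.32 (pRb_null), 0.30 and −0.25 (p53_null), and 1.10 and 0.21 (double_null). The lowest and the highest of the 8 arrays were both controls, and its difference of 0.60 ± 1.13 in double_null was within its error.

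Sirpa encodes the inhibitory receptor that reads CD47 on other cells as a signal not to engulf them. The platform annotation lists 1 shared accession for its 3 probe sets. Probe set 1416986_a_at scored −1.27 and −1.74 (control), 0.16 and −0.035 (pRb_null), 0.44 and 0.53 (p53_null), and 0.83 and 1.07 (double_null). All 4 genotypes were separated without overlap, in that order from low to high. The rise from control to double_null was 2.46 ± 0.20 (adjusted p = 0.039), the 1 call among the members. Over 15 alternative fits the adjusted p ran from 0.040 to 0.36, and 13 of them lost the call, the 8 fits that each leave out 1 array among them. Calls were lost over the whole table too in these 13 fits, so the loss in them is not particular to Sirpa. The moderated test and the replicate block called 0 of 22626 probe sets, quantile normalization 1, and the fits without 1 array few. A further fit with 1 mean per gene did not call Sirpa, though it called 40 genes higher and 78 lower of 12393. Probe set 1448534_at had a like pattern, with scores of −0.76 and −2.01 (control), 0.18 and −0.18 (pRb_null), 0.54 and 0.68 (p53_null), and 1.21 and 0.34 (double_null). Its difference in double_null was 2.16 ± 0.56 (adjusted p = 0.18), and its r with the former was 0.92.

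The Sirpa probe set 1416985_at followed another order. It scored 0.29 and 0.037 (control), −1.66 and −1.11 (pRb_null), −0.065 and 0.082 (p53_null), and 1.11 and 1.30 (double_null). The pRb_null arrays were the lowest, control and p53_null overlapped, and double_null was the highest. In pRb_null against control it differed by −1.55 ± 0.23 (adjusted p = 0.22), whereas 1416986_a_at differed by 1.57 ± 0.20 (adjusted p = 0.20), the opposite sign. In double_null against pRb_null it differed by 2.59 ± 0.23, with an adjusted p of 0.060. The 3 probe sets agreed that both double_null arrays lay above both control arrays, and also above both pRb_null arrays.

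**Figure D3:**
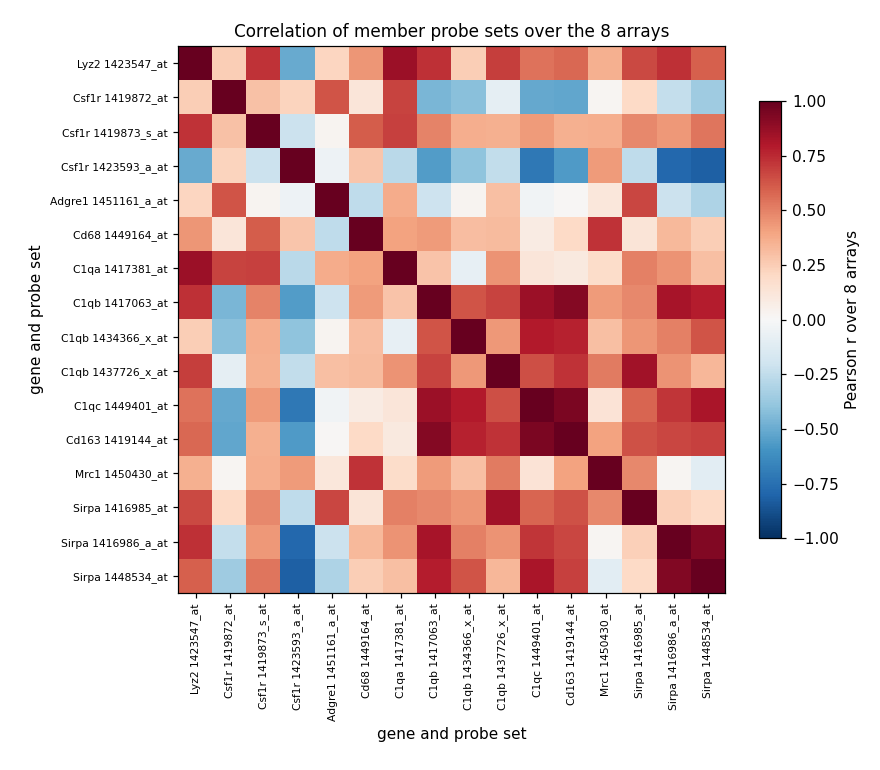
Pearson r over the 8 arrays between each pair of the 16 probe sets (both axes), from −1 in blue to 1 in red. C1qb 1417063_at, C1qc and Cd163 form a block with r from 0.86 to 0.94, C1qa sits apart from it beside Lyz2 (r of 0.86), and Csf1r 1423593_a_at has an r of −0.82 with Sirpa 1448534_at.

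Over the 111 pairs of probe sets of different genes the median r was 0.356, with a range from −0.82 to 0.94, and 86 were above 0. The 9 pairs within a gene had a median of 0.295. These are descriptions over 8 arrays in which the genotype means and any array effects are shared. By gene, the r with the mean of the 9 other genes was highest for Lyz2 (0.85), C1qb (0.81) and Sirpa (0.79) and lowest for Csf1r (0.17) and Adgre1 (0.12).

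Counting arrays across all genotypes gave 2 recurring orders. In 5 of 16 probe sets both double_null arrays lay above the 6 others (7.85% of all probe sets): Lyz2, C1qa, Csf1r 1419873_s_at, and the Sirpa probe sets 1416985_at and 1416986_a_at. However, the double_null arrays of Csf1r 1419873_s_at spanned 0.14 to 2.36. In 5 of 16 the 4 arrays of p53_null and double_null lay above the 4 others (5.89%): C1qb 1417063_at, C1qc, Cd163, Sirpa 1416986_a_at and Sirpa 1448534_at. Both control arrays lay below the 6 others in 2 probe sets (6.94%), both of Sirpa, and both pRb_null arrays in 3 (5.45%), among them Cd163.

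Loss of p53 on top of pRb loss was read by setting double_null against pRb_null. There 15 of 16 differences were positive, with a median of 1.53 (−0.15 over all probe sets), and 13 were higher without overlap (22.0% of all) and 1 lower (28.1%). At an unadjusted p under 0.05, 8 were higher (7.73%) and 0 lower (10.9%), and 0 were called by the limma fit (0.15% higher, 0.256% lower). Without pRb_null replicate 2 the median was 1.48. By the moderated test 4 were higher at the unadjusted bound (2028 of all 22626 probe sets), and 0 were called. Adding pRb loss to p53 loss, double_null against p53_null, gave a median of 0.63 (0.037 over all). Here 8 were higher without overlap (24.3%) and 0 lower (25.2%). At the unadjusted bound 4 were higher (5.98%) and 0 lower (5.92%): Lyz2, C1qa, Csf1r 1419872_at and Sirpa 1416985_at. The limma fit called 0 of them (0.0133% higher, 0.0221% lower). The moderated test also called 0, with 4 higher at the unadjusted bound (1654 of all 22626 probe sets). For Cd163, C1qc and all 3 C1qb probe sets the p53_null and double_null arrays overlapped.

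Setting p53_null directly against pRb_null gave a median of 0.52 (−0.26 over all), and 9 were higher (22.6%) and 3 lower (31.8%) without overlap. At the unadjusted bound 4 were higher (6.82%) and 1 lower (9.41%), and 0 were called by the limma fit (0.0133% and 0.0442%). The moderated test had 2 higher and 1 lower at that bound (1779 and 2386 of all 22626 probe sets). Quantile normalization and array medians set to 0 had 6 higher and 1 lower each (2041 and 2002 of all, and 1875 and 1740 of all). The interaction term, which asks whether the effect of losing both proteins exceeds the sum of both single effects, had a median of 1.10 over the members (−0.035 over all). It called 0 members (0.0% in either direction), with 4 higher (4.47%) and 1 lower (5.98%) at the unadjusted bound. It was 2.12 ± 0.54 for C1qa (adjusted p = 0.37), 1.43 ± 0.50 for Lyz2 (adjusted p = 0.47) and 2.65 ± 0.32 for Csf1r 1419872_at (adjusted p = 0.22). The highest was 2.97 ± 1.14 for Adgre1 (adjusted p = 0.50). In Csf1r 1419872_at and Adgre1, double_null was near control (0.18 ± 0.23 and −0.05 ± 0.80), while p53_null differed by −2.14 ± 0.23 and −1.46 ± 0.80. In pRb_null the differences from control were −0.34 ± 0.23 and −1.56 ± 0.80, so for Adgre1 both single losses enter the term. For Cd163 the interaction was −0.06 ± 0.28, for C1qc −0.24 ± 0.65 and for C1qb 1417063_at −0.47 ± 0.44. For Sirpa 1416985_at it was 2.75 ± 0.33 and for 1416986_a_at −1.10 ± 0.28 (adjusted p = 0.21 and 0.37), again of opposite sign. Without control replicate 2 the median of the interaction was 0.16.

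Of 52 probe sets of 36 other complement genes, 0 were called in any comparison by the limma fit. Of all probe sets, 0.323% were called higher and 0.526% lower in double_null against control, the comparison with the most calls. At an unadjusted p under 0.05, 7 were higher and 8 lower in double_null against control (8.72% and 9.93% of all probe sets), with a median of 0.31. The 7 higher were each of a different gene: C3ar1, Cd55, Cd59a, Cfp, Cr1l, Fcna and Vtn. The 8 lower were of Clu, Calr and Serping1 only, so the balance by probe set does not hold by gene. In p53_null 1 was higher and 7 lower (7.32% and 7.24% of all), with a median of −0.52. Every probe set of Clu was among these 7. Of the proteases that C1q activates, C1ra differed by −1.98 ± 0.73 and C1s1 by 0.75 ± 0.97 in double_null, with adjusted p of 0.28 and 0.72. Serping1, the inhibitor of these proteases, differed by −1.60 ± 0.50 (adjusted p = 0.22). Those with the smallest p were Cd59a, a blocker of the membrane attack complex (1.68 ± 0.25, adjusted p = 0.090), and 2 probe sets of the chaperone Clu (−1.67 ± 0.25 and −1.51 ± 0.26, adjusted p = 0.091 and 0.11). Properdin (Cfp), made by phagocytes, differed by 2.28 ± 0.48 (adjusted p = 0.14), with −0.93 and −0.72 in control and 1.74 and 1.18 in double_null.

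Other macrophage genes had their highest list mean in double_null. Over 55 genes the list mean lay between −0.20 and −0.17 (control), −0.32 and −0.091 (pRb_null), −0.18 and −0.11 (p53_null), and 0.49 and 0.58 (double_null). Of 82 probe sets, 0 were called in any comparison by the limma fit (0.323% of all higher and 0.526% lower in double_null against control). At the unadjusted bound 19 were higher and 5 lower in double_null against control (8.72% and 9.93% of all probe sets), with a median of 1.02. In p53_null 2 were higher and 5 lower (7.32% and 7.24% of all), with a median of 0.13. The smallest p belonged to Ms4a6d 1419599_s_at, a membrane protein of macrophages (2.16 ± 0.22, adjusted p = 0.055), to the macrophage lectin Clec10a, which was lower (−2.06 ± 0.27, adjusted p = 0.077), and to Hpgds, a prostaglandin synthase (2.51 ± 0.37, adjusted p = 0.091). Clec10a scored 1.05 and 1.38 in control and −0.53 and −1.16 in double_null. The signalling adaptor Tyrobp differed by 1.40 ± 0.36 (adjusted p = 0.18). Spi1, which encodes PU.1, differed by −0.42 ± 1.06, with −0.65 and 2.12 in control, a spread wider than any difference between genotypes.

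Of the ligands and partners of the members, 0 of 42 probe sets of 20 genes were called in any comparison. In double_null against control 0.323% of all probe sets were called higher and 0.526% lower. At the unadjusted bound 8 were higher and 5 lower in that comparison (8.72% and 9.93% of all probe sets). Calr is also on the complement list, and all its probe sets are among the lower ones of both lists. Csf1 was read by 4 probe sets with differences from −0.85 ± 1.07 to 1.99 ± 0.79, and Il34 by 1 (0.95 ± 0.78). Cd47, the ligand of Sirpa, ranged from −1.16 ± 0.44 to 1.94 ± 0.62 over 4 probe sets. Thbs1, which also binds CD47, differed by 2.10 ± 0.35 and 2.37 ± 0.53 in its 2 probe sets (adjusted p = 0.10 and 0.15). Cd36 1450884_at, a scavenger receptor, differed by 1.91 ± 0.26 (adjusted p = 0.078), and Calr 1433806_x_at, a chaperone that C1q also binds, by −1.29 ± 0.28 (adjusted p = 0.14).

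Chemokines that attract macrophages held a further called probe set, Cxcl12 1448823_at. Of all probe sets, 0.323% were called higher in double_null against control and 0.15% against pRb_null. Cxcl12 1448823_at scored −0.55 and −0.73 (control), −1.20 and −1.08 (pRb_null), 0.43 and 0.72 (p53_null), and 1.11 and 1.28 (double_null). It rose by 1.83 ± 0.14 in double_null over control (adjusted p = 0.036) and by 2.33 ± 0.14 over pRb_null (adjusted p = 0.041). All 15 alternative fits lost both calls, with an adjusted p from 0.051 to 0.34 against control and from 0.050 to 0.32 against pRb_null, the 8 fits without 1 array among them. Apart from array medians set to 0 and array weights, these fits called few probe sets of the whole table. The other Cxcl12 probe set, 1417574_at, was led by control replicate 2 (2.06) and differed by −1.55 ± 0.97 in double_null against control. Both probe sets of Ccl9 were higher in double_null (1.51 ± 0.19 and 1.34 ± 0.25, adjusted p = 0.071 and 0.12). Of 19 probe sets of 13 chemokine genes, 4 were higher and 0 lower in double_null than in control at the unadjusted bound (8.72% and 9.93% of all probe sets), and the monocyte chemokine Ccl2 differed by 0.32 ± 0.88.

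**Figure D4:**
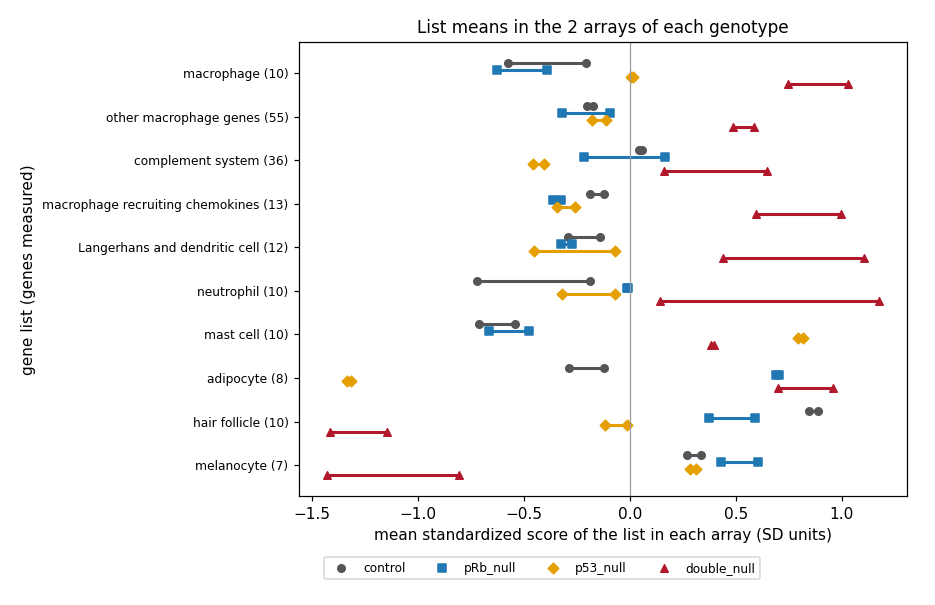
Mean standardized score of 10 gene lists (rows, with the number of genes measured) in each array (horizontal axis, SD units), with a line joining the 2 arrays of a genotype. The macrophage members lie highest in double_null (0.74 and 1.03), mast cell markers lie highest in p53_null (0.80 and 0.82), and hair follicle genes lie lowest in double_null (−1.42 and −1.15).

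Several lists of markers of other cells differed between the same genotypes. The mean of the 10 mast cell markers lay between −0.71 and −0.54 (control), −0.66 and −0.48 (pRb_null), 0.80 and 0.82 (p53_null), and 0.39 and 0.40 (double_null). Those of p53_null and double_null were thus above control, as for Cd163, C1qb 1417063_at and C1qc. Langerhans and dendritic cell markers lay between 0.44 and 1.11 in double_null and between −0.45 and −0.068 in all other arrays. Neutrophil markers lay between 0.14 and 1.18 in double_null and between −0.72 and −0.0095 elsewhere, and Lyz2 is also a gene of neutrophils. Hair follicle genes went the other way, with 0.85 to 0.89 in control, 0.37 to 0.59 in pRb_null, −0.12 to −0.012 in p53_null and −1.42 to −1.15 in double_null. Melanocyte markers lay between −1.43 and −0.81 in double_null and between 0.27 and 0.34 in control. Adipocyte markers lay between −1.33 and −1.31 in p53_null and between 0.70 and 0.96 in double_null. Endothelial markers lay between 0.25 and 0.91 in double_null and between −0.61 and 0.094 elsewhere. Dermal fibroblast markers lay between −0.36 and −0.26 in control and pRb_null, between 0.21 and 0.24 in p53_null and between 0.044 and 0.76 in double_null. Transcripts of the sex chromosomes lay between −0.74 and −0.41 in p53_null, between 0.39 and 0.40 in double_null and between −0.074 and 0.27 in control and pRb_null. This list was drawn up from Xist, a transcript of females, and genes of the Y chromosome, so its mean is no reading of sex. In double_null against p53_null, 5 of its 9 probe sets were higher and 3 lower at the unadjusted bound (5.98% and 5.92% of all). The part of these cells, and of the sex of the pooled animals, in the macrophage scores was not tested, and the scores hold no zero from which absence of a marker could be read.

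Array-wide values also differed. The median score of an array over all probe sets was between −0.16 and 0.23. The median of the 64 array control probe sets was −0.69 and −0.51 in the control arrays and between −0.091 and 0.45 in the 6 others, so this value moves with each comparison against control. It was 0.12 and 0.31 in double_null and 0.40 and 0.14 in pRb_null, whose comparison gave a member median of 1.53. Its part in the result was not tested.

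The probe sets most like the mean profile of the 10 genes, by Pearson r over the 8 arrays among 20364 other probe sets with 1 symbol, were led by the alarmin S100a8 (0.974), the microfibril protein Mfap5 (0.973), Star (0.972), Gsta2 (0.972) and Rab27b (0.966). Pcdh18, Adam9, Cyp2b10, Tcim and Ms4a6d followed, with r from 0.964 to 0.958. S100a8 scored −0.86 and −0.70 (control), −0.83 and −0.89 (pRb_null), 0.15 and 0.25 (p53_null), and 1.51 and 1.38 (double_null). The most opposite were Fxyd4 (−0.985), the root sheath keratin Krt71 (−0.977), Gclc (−0.976), the melanocyte gene Oca2 (−0.97) and Fhod3 (−0.97). In all, 124 of the 20364 probe sets had an r over 0.9 and 201 an r under −0.9. Of the 10 most alike, Ms4a6d was the 1 gene on the lists of macrophage genes.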

How the data were processed

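Whole skin RNA was measured on 8 arrays, 4 genotypes with 2 arrays each. The authors' deposited values are standardized scores. In each of the 22690 rows the mean was 0 and the SD 1 to within 1e-06. RMA is the only tool in the submitters' processing notes, with no version, and no source used here says if logarithms were taken first. A small absolute change therefore counts as much as a large one, and no filter on dim probe sets is possible. The number of arrays limits the precision.

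Gene names are those of the platform annotation, checked against RefSeq (GRCm38.p6) through Entrez numbers: 20393 probe sets had 1 symbol, 691 several and 1606 none, and 20364 matched. Members and gene lists were chosen with earlier results of these data known. Every member probe set is named. From each pathway list the called probe sets, or else the 3 with the smallest p in double_null against control, are named, and further list genes were chosen by role after their values were seen. The 64 array control probe sets were left out of the fits. Limma 3.58.1 (R 4.3.3) fitted 1 mean per genotype, with 4 residual degrees of freedom, and the test without moderation was used because standardization ties the variances of rows together. The fit was tested on simulated data. Alternatives were the moderated test, quantile normalization, array medians set to 0, a replicate block, only the groups compared, array weights, gene means and leaving out each array. A crossed block was added after seeing the data. Python 3.11.15, pandas 2.3.3 and matplotlib 3.10.9 made the tables and plots.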

Additional observations from a re-analysis of the deposited data

How the results depend on the processing

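The median differences of the members kept their sign in every fit run except for pRb_null against control, where the main value was 0.026. In double_null against control, the single member called (Sirpa 1416986_a_at) became 0 members called with the moderated test, quantile normalization, the replicate block, the crossed block, only the groups compared, 1 mean per gene, and with any array left out (0 to 0), and stayed called with array medians set to 0 and with array weights. With any array left out, few probe sets of the whole table were called in double_null against control. With 1 mean per gene, 40 genes were called higher and 78 lower of 12393, so there the lost call did not go with a loss over the whole table. In the other comparisons 0 members were called under each alternative run. With 1 array left out, the lone array of its group was assumed to vary like the others, and the member median ran from −0.21 to 0.20 for pRb_null against control, from 0.18 to 1.09 for p53_null against control, from 1.18 to 1.83 for double_null against control, from 1.13 to 1.80 for double_null against pRb_null, from 0.43 to 0.72 for double_null against p53_null, from 0.47 to 0.56 for p53_null against pRb_null and from 0.16 to 1.59 for the interaction. With gene means it was 0.87 for double_null against p53_null and 0.84 for the interaction. For p53_null against pRb_null it was 0.78 after quantile normalization and 0.74 with array medians set to 0. The cause of these changes was not tested.

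Over all probe sets, 73 were called higher and 119 lower in double_null against control, 0 in all with the moderated test, 1 after quantile normalization and 0 with the replicate block, against 68 higher and 137 lower with array medians set to 0 and 51 higher and 91 lower with array weights. The replicate numbers showed no pairing common to all groups: the r of deviations between groups ran from −0.16 to 0.20. Whether some of the groups share a batch was not tested. As both numbers occur in each genotype, the block cannot move a difference of means (the member median stays 1.49 in double_null against control by construction), so it bears only on the errors. With the pRb_null numbers exchanged, 5 probe sets were called in double_null against pRb_null, against 34 higher and 58 lower without a block. With 2 arrays per group, a difference of many times its printed SE can still miss the call. Sirpa 1416985_at, at 2.59 ± 0.23 in double_null against pRb_null, was not called (adjusted p = 0.060 by the limma fit).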
